A study of Mus musculus with 96 samples.

Results

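In neuronal nuclei of the mouse hippocampus, 308 of 11771 promoter peaks of H3K4me3 (2.62%) had an H3K27me3 peak close by, and these promoters with both marks are described here. A promoter counted as one with both marks when the centre of its H3K4me3 peak lay within 2 kb of the centre of an H3K27me3 peak, both taken from the consensus peaks of NeuN+ nuclei. The choice used peak positions and the authors' annotation of a peak as promoter, and no difference between genotypes. The remaining 11463 promoter peaks served as the comparison. The 308 promoters named 304 of the 11160 genes with a promoter peak, and they took up 307 of the 4132 H3K27me3 peaks of NeuN+ nuclei (7.43%).

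The samples came from C57BL/6N-background mice at 6 months of age. Besides the wild type (WT) there were animals without Mutyh (Mutyh-/-), without Ogg1 (Ogg1-/-) and without both (DKO), giving 4 genotypes. Ogg1 and Mutyh are DNA glycosylases that start the repair of oxidised guanine and of adenine mispaired with it, and the knockouts were those of the whole animal, not of neurons alone. Hippocampal nuclei were sorted by flow cytometry on NeuN, the product of Rbfox3, into a neuronal (NeuN+) and a non-neuronal (NeuN-) fraction, the tissue of several animals of 1 genotype being pooled for a sort. Each fraction was immunoprecipitated for H3K4me3, H3K27me3 and Suz12, with 3 libraries per genotype, so that each of the 6 tables held 12 libraries. The libraries of a genotype are separate sorts, and p-values rest on the spread between libraries. For H3K27me3 and Suz12 that spread was pooled over all windows of a level, not taken from the window tested.

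H3K4me3 is the trimethylation of lysine 4 of histone H3 and lies at the start sites of active or poised genes, most of them CpG islands. H3K27me3 is laid down by the Polycomb repressive complex 2 (PRC2), of which Suz12 is a core subunit, and marks silenced genes. In embryonic stem cells, promoters of developmental regulators often carry both marks and are called bivalent. In differentiated neurons, genes of other lineages keep H3K27me3, whereas neuronal genes carry H3K4me3 alone. ChIP-seq of a bulk fraction cannot tell 1 chromatin fibre with both marks from a mixture of nuclei with 1 mark each, nor fewer nuclei of a type from less signal per nucleus.

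Several of the sequences under the H3K4me3 windows are shown as examples. The promoters with both marks were found at CpG-dense gene starts, with exceptions, and the other promoters were nearly as dense. Positions are those of GRCm38 (mm10), sequences are from its RefSeq assembly on the strand of the gene, 5′ to 3′, and each run is 200 bases of the 401-bp window in which reads had been counted, without untranslated exon bases. Capitals mark each CG dinucleotide. The homeodomain gene Nkx6-1 (chr5:101663893-101664092, minus strand, 904 to 1103 bases downstream of the start site, coding exon) and the forkhead gene Foxd2 (chr4:114908450-114908649, minus strand, coding exon) were among those with most H3K27me3 or Suz12. Onecut3 (chr10:80495577-80495776, plus strand, coding exon) is a further homeodomain gene, and Hmga2 (chr10:120475864-120476063, minus strand, coding exon and intron) had the H3K4me3 call shared by all 3 knockouts. Prdm1 (chr10:44458749-44458948, minus strand, directly upstream of the start site) and Prox1 (chr1:190169604-190169803, minus strand, upstream of the start site) had lower H3K27me3 calls.
Nkx6-1: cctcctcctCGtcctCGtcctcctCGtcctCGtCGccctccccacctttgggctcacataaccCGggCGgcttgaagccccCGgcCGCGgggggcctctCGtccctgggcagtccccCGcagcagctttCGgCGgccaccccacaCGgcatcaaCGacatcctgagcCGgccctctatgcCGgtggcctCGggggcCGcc
Foxd2: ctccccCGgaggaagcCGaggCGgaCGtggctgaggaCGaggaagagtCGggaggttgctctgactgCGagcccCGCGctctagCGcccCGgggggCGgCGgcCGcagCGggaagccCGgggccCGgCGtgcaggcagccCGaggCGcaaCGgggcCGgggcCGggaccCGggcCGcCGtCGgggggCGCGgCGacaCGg
Onecut3: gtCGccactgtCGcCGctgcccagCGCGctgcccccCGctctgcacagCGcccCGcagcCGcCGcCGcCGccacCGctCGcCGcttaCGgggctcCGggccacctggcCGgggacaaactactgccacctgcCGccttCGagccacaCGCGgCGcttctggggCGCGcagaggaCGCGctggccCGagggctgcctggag
Hmga2: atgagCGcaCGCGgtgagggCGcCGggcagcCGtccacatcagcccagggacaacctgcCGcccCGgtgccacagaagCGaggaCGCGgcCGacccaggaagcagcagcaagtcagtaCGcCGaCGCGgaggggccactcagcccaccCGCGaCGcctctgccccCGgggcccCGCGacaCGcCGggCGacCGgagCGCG
Prdm1: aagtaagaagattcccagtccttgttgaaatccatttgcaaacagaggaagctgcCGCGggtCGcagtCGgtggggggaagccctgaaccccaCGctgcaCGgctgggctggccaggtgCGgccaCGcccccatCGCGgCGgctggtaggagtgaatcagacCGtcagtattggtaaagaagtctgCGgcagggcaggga
Prox1: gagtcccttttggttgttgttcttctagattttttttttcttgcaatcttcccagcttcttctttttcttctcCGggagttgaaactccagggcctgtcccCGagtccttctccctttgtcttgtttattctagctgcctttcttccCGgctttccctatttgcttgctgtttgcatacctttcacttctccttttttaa
These 200-base runs held 20 CG in Nkx6-1, 31 in Foxd2, 28 in Onecut3, 28 in Hmga2, 13 in Prdm1 and 3 in Prox1. Runs drawn in the same way but not shown held 6 in Id3 and 23 in Wnt6, which had both marks, and 9 in Snap25, which did not. Over the whole 401-bp windows, the promoters with both marks had a median of 39 CG (interquartile range 29 to 48) against 35 (25 to 45) in the other promoters. Their median GC content was 69.3% against 66.8%, and the median ratio of observed to expected CpG was 0.827 against 0.799, so that the distributions overlapped widely. The promoters with a Suz12 peak, described below by their other readouts, had the more CG-rich windows, with a median of 44 CG against 37 in those without.

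Short motifs were searched on both strands of every window. GGGCGG, the core of Sp-type GC boxes, was in 227 of the 308 windows (73.7%, against 69.3% of all promoter windows). The CCAAT box was in 72 (23.4% against 23.1%), the E-box CACGTG in 21 (6.82% against 7.72%) and TATAAA in 13 (4.22% against 3.15%). None of these motifs set the promoters with both marks far apart from the rest.

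Of the 308 H3K4me3 peaks, 297 were annotated within 1 kb of a start site and 11 between 1 and 2 kb. Their centres lay at a median of 172.5 bp downstream of the start site (182 bp in the other promoters). By GENCODE M21, the centre fell in an untranslated exon in 102 (33.1% against 23.3% of the other promoters), in a coding exon in 76 (24.7% against 20.6%), in an intron in 86 (27.9% against 49.2%), in an exon of a non-coding transcript in 17 (5.52% against 2.77%) and outside genes in 27 (8.77% against 4.10%). The nearest H3K27me3 centre was a median of 524 bp away (interquartile range 216 to 952 bp), downstream in 173, upstream in 133 and at the same base in 2. The windows of the marks overlapped in 131 and their centres lay within 1 kb in 239. In 302 cases both peaks had been annotated to the same gene.

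The 3 promoters just inside the limit were those of Eya4 (1893 bp), Calca (1922 bp) and Fzd9 (1929 bp), with a mean H3K4me3 value of 15.9, 12.3 and 16.2 and a mean H3K27me3 value of 4.45, 5.89 and 2.44. Just outside lay Sema3f (2029 bp), Creb5 (2076 bp) and Msx1 (2079 bp), with H3K4me3 at 17.6, 10.3 and 10.5 and H3K27me3 at 6.89, 7.37 and 5.07. Levels near the limit did not separate the groups, since Msx1, a homeodomain gene, resembled many promoters inside it.

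The sort could be checked on the H3K4me3 peaks. A promoter peak was present in NeuN+ nuclei for 7 of 8 neuronal markers (Rbfox3, Snap25, Syt1, Map2, Slc17a7, Camk2a and Gad1, not Gad2), for 1 of 4 astrocyte markers (Slc1a3), for 1 of 6 oligodendrocyte markers (Mbp), and for 0 of 4 microglial and 0 of 4 endothelial markers. The check is of presence only: the mean value was 28.6 at Mbp and 14.1 at Slc1a3, beside a median of 21.8 for the neuronal markers. The NeuN- table held no promoter peak for any of these markers, glial ones included, so its label could not be checked in this way and its peaks are used only as a second readout. Of these markers, Gad1 alone had both marks. The knockouts themselves cannot be checked on H3K4me3: Mutyh had no peak, and the Ogg1 promoter peak (chr6:113326823-113327223), without H3K27me3, had a value of 10.7 ± 4.79 in WT, 13.2 ± 2.06 in Mutyh-/-, 12.6 ± 5.94 in Ogg1-/- and 6.59 ± 7.32 in DKO (SD, n = 3).

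H3K4me3 was lower at the promoters with both marks than at the other promoters in 12 of 12 libraries. The values are the deposited normalised read counts of windows of equal length (401 bp), each the number of reads in the window divided by 1 factor per library, and the mean over the 12 libraries had a median of 12.8 (interquartile range 9.87 to 16.1) against 24.6 (18.5 to 29.8). On the log2(value + 1) scale, the median per library ran from 3.20 to 4.34 at the promoters with both marks and from 4.07 to 5.15 at the others, a difference of -0.87 ± 0.14 (SD, 12 libraries). By genotype the difference was -0.96 ± 0.05 in WT, -0.79 ± 0.07 in Mutyh-/-, -0.86 ± 0.12 in Ogg1-/- and -0.88 ± 0.24 in DKO (SD, n = 3). Of the 308 promoters, 247 (80.2%) were in the lowest quartile of all H3K4me3 peaks by level, 54 in the next, 2 in the third and 5 in the top quartile. Behind the median promoter with both marks stood 4 to 25 reads per library, against 7 to 45 for the others.

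For H3K27me3, the comparison was with all remaining H3K27me3 peaks of NeuN+ nuclei, not with promoter peaks alone. Of all 4132 H3K27me3 peaks, 1095 were annotated as promoter, whereas 306 of the 308 promoters with both marks were paired with such a peak. The H3K27me3 windows of these promoters had a higher median than the remaining H3K27me3 peaks in 11 of 12 libraries, by 0.55 ± 0.21 on the log2(value + 1) scale (SD, 12 libraries), and an equal one in Mutyh-/- replicate 1, whose median window held 3 reads. Their mean value had a median of 8.15 (interquartile range 5.54 to 10.3) and rested on a median of 3 to 14 reads per library, so that single promoters were measured with a large counting error. The Suz12 windows of the 126 promoters that had one were higher than the remaining Suz12 peaks in 10 of 12 libraries, by 0.32 ± 0.23.

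**Figure D1:**
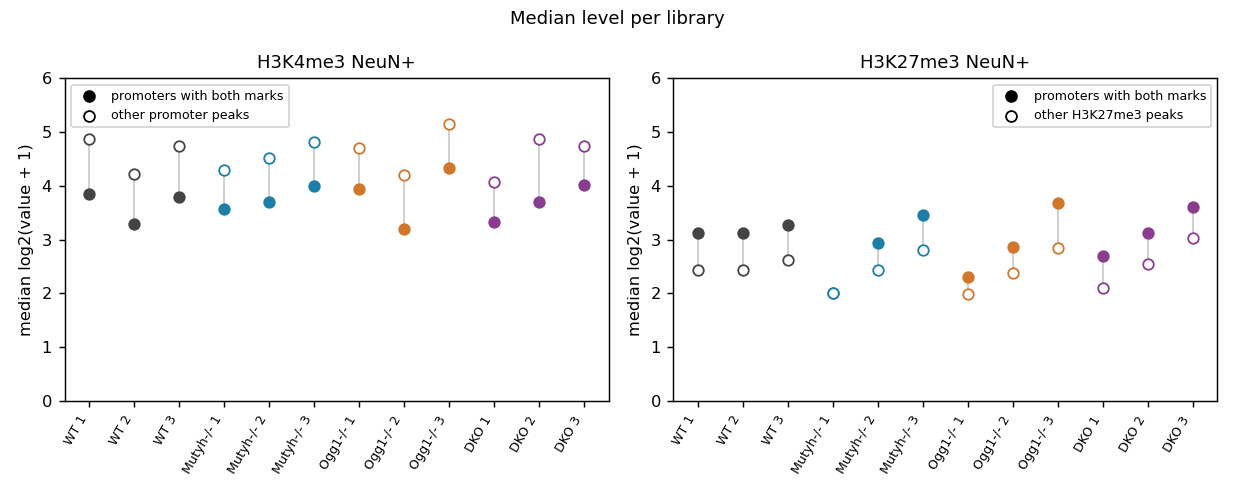
Median log2(value + 1) of the promoters with both marks (filled) and of the comparison peaks (open) in each of the 12 NeuN+ libraries, for H3K4me3 (left, against the other promoter peaks) and H3K27me3 (right, against the other H3K27me3 peaks); colours are genotypes and grey lines join the pair of a library. H3K4me3 of the filled points lies between 3.20 and 4.34, below the open point of the same library in 12 of 12, and H3K27me3 lies above it in 11 of 12.

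Of these, 4 promoters stood apart by their H3K27me3 level. Rn45s, the precursor of ribosomal RNA (chr17:39844491-39844891), had a mean of 982 ± 358 (lowest library 636), Aida (chr1:183299118-183299518) of 244 ± 65.0, Zc3h7a (chr16:11143903-11144303) of 202 ± 76.7 and Sfi1 (chr11:3193210-3193610) of 118 ± 72.8 (SD, 12 libraries). They were also the highest in H3K4me3, at 223, 105, 51.5 and 163, and in Suz12, at 896, 92.3, 122 and 38.9, and all 4 had peaks of both histone marks in NeuN- nuclei. Rn45s has many near-identical copies in the genome, and reads of such copies cannot be placed with certainty. The limit of 100 that separates these promoters was set after their values were seen. The correlations of mean values and the Suz12 calls are given without them as well, and the other results include them.

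Below these, the highest mean H3K27me3 values were close to each other. 4931408C20Rik, a transcript without an assigned function, had 19.4 ± 11.5, Nkx6-1, a homeodomain factor of motor neurons and pancreatic beta cells, 19.0 ± 5.51, Smad6, an inhibitor of BMP signalling, 17.4 ± 7.97, Mir6236 17.2 ± 8.62, Itpripl2 17.0 ± 8.82 and Ajuba, a LIM-domain protein, 16.8 ± 5.97 (SD, 12 libraries). Neighbours in this order differed by far less than their SD. At Nkx6-1 the lowest, median and highest libraries had 11.0, 17.6 and 30.2 for H3K27me3 and 2.26, 5.22 and 13.1 for H3K4me3, so its H3K27me3 was never near 0 while its H3K4me3 stayed below the median of the other promoters (24.6) in every library. At Smad6 these were 1.05, 20.2 and 26.5 for H3K27me3 and 0, 4.23 and 12.3 for H3K4me3, so its H3K27me3 was near 0 in the lowest library.

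In H3K4me3, the promoter next to the 4 was that of Adgrl2, a latrophilin receptor at synapses, with 31.8 ± 12.3, above the median of the other promoters, and an H3K27me3 value of 7.11 ± 3.76 at 1303 bp (SD, 12 libraries). Over the 308 promoters the means of the marks had a Spearman correlation of -0.21 (-0.26 over the 304 without those 4), a description across promoters that share libraries and depth.

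**Figure D2:**
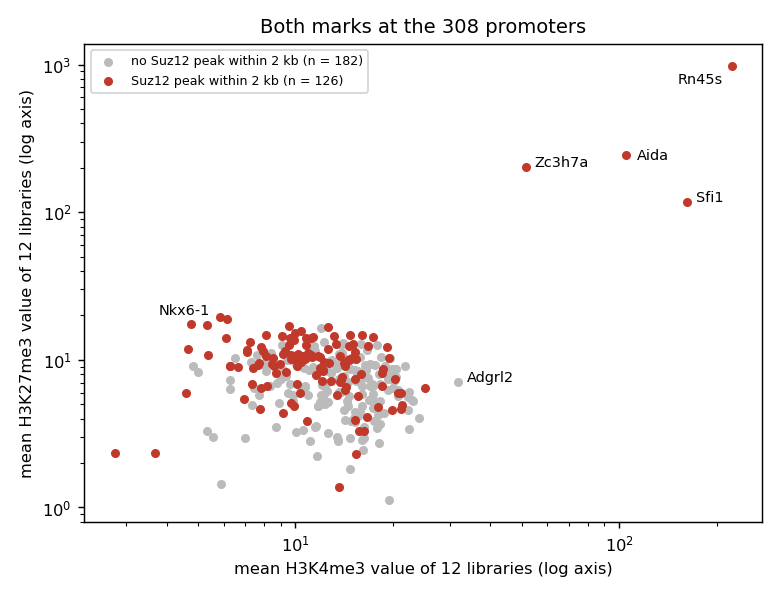
Mean H3K4me3 value (log axis) against mean H3K27me3 value (log axis) of each of the 308 promoters over 12 NeuN+ libraries, red with and grey without a Suz12 peak within 2 kb. Rn45s, Aida, Zc3h7a and Sfi1 lie apart at H3K27me3 means of 118 to 982, and all other promoters lie at or under 19.4.

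Suz12, which had no part in the choice, was found at many of these promoters. A Suz12 peak of NeuN+ nuclei lay within 2 kb of 126 of 308 (40.9%, exact 95% binomial interval 35.4 to 46.6%) and of 61 of 11463 other promoters (0.532%, 0.407 to 0.683%). These intervals cover counting error only. The 126 promoters with Suz12 had a median mean H3K27me3 value of 9.80 against 6.89 in the 182 without, and a median H3K4me3 value of 11.2 against 13.8. Library by library, H3K27me3 was higher with Suz12 in 12 of 12, by 0.43 ± 0.16, and H3K4me3 was higher in 0 of 12, with a difference of -0.26 ± 0.14 on the log2(value + 1) scale (SD, 12 libraries).

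The highest Suz12 values after those of the 4 promoters above were at Foxl2os, the antisense transcript of the forkhead gene Foxl2, with 27.6 ± 15.9, at Foxd2 with 25.8 ± 15.6 and at Smad6 with 23.5 ± 10.7. Nkx6-1 had 22.2 ± 14.5, and Ihh, the Indian hedgehog ligand, 22.0 ± 12.4 (SD, 12 libraries). At Foxd2 the lowest, median and highest libraries had Suz12 values of 2.97, 30.4 and 47.5, and the spread between libraries thus exceeded the differences between these genes. The Suz12 and H3K27me3 means had a Spearman correlation of 0.48 over the 126 promoters and of 0.43 without the 4 (122 promoters), given as a description.

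The peaks of NeuN- nuclei gave a second readout that the choice had not used. An H3K27me3 peak of NeuN- nuclei lay within 2 kb of 108 of the 308 promoters (35.1%, against 2.49% of the other promoters) and a Suz12 peak at 10 (3.25% against 0.0960%). An H3K4me3 peak of NeuN- nuclei was found at 61 (19.8% against 25.8%). Both histone marks were found again in NeuN- nuclei at 17 (5.52% against 0.288% of the other promoters). H3K27me3 alone was at 91 (29.5%), H3K4me3 alone at 44 (14.3%) and neither at 156 (50.6%). The 17 included the 4 promoters that stood apart, and Reln and Ntn1, which encode secreted proteins that guide neurons and axons. Sox6, Wnt6, Cdh23, Adgrl2 and Slc35d3 were there too. The rest were 4931408C20Rik, Mir6236, Coil, Fendrr and peaks of Speer4cos, which belongs to a multigene family. The NeuN- tables held fewer peaks than those of NeuN+ nuclei, with 3270 for H3K4me3 and 1698 for H3K27me3, and a missing peak there does not show that the mark was absent.

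By gene family, the promoters with both marks were spread unevenly. Over all genes with a promoter peak, 304 of 11160 (2.72%) were among them. Homeodomain factors gave 14 of 48 (29.2%), other developmental transcription factors 20 of 105 (19.0%) and basic helix-loop-helix factors 5 of 28 (17.9%), together 39 of 181 (21.5%). The homeodomain genes were Barx2, Dlx3, En2, Gbx1, Meis2, Meox2, Msx3, Nkx1-2, Nkx6-1, Onecut3, Pitx3, Pou3f1, Pou4f1 and Prox1, of which 9 also had a Suz12 peak. The helix-loop-helix genes were Id3, Mesp1, Npas1, Npas3 and Twist2. In the group of other developmental factors stood Foxc1, Foxd2, Fezf2, Gli2, Gli3, Sox2, Sox6, Sox7, Sall1, Prdm1 and Tbx2, and 14 of its 20 genes had Suz12. Lists were made by gene symbol, and these 20 also counted the antisense transcript Foxl2os and the immune-cell factors Irf5 and Tbx21.

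Signalling genes came next. Of Wnt pathway genes, 8 of 45 (17.8%) had both marks, among them the ligands Wnt2b, Wnt6 and Wnt8b, the receptors Fzd9, Fzd10 and Ror2 and the secreted inhibitor Notum. Of genes of TGF-beta, BMP, FGF and Hedgehog signalling, 9 of 62 (14.5%) had both, namely the ligands Bmp2, Bmp6, Fgf3, Fgf8, Fgf15, Ihh and Inhbb, the receptor Fgfr3 and the inhibitor Smad6. Cadherins gave 4 of 36 (11.1%: Cdh1, Cdh6, Cdh23 and Celsr1) and interneuron genes 2 of 13 (15.4%: Gad1, which makes GABA, and Reln).

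Other neuronal families lay nearer the share of all genes, and housekeeping families had none. Ion channels gave 1 of 123 (0.813%, Kcnj8, a potassium channel of vascular mural cells), neurotransmitter receptors 3 of 89 (3.37%: Adra1b, Grik1 and Grm6), axon guidance genes 3 of 63 (4.76%: Ephb4, Ntn1 and Unc5b), and excitatory and pan-neuronal genes 1 of 29 (3.45%, Prox1, a homeodomain factor of dentate granule cells). Glial and vascular genes gave 1 of 6, again Kcnj8. Ribosomal protein genes gave 0 of 63, genes of oxidative phosphorylation 0 of 73 and polycomb genes 0 of 32. These lists were described by their counts only and were not tested. Of the genes that the study discussed for these marks, Oaf (H3K4me3 10.1 ± 4.37, H3K27me3 9.31 ± 5.01, centres 255 bp apart) and Wnt6 (14.3 ± 7.12 and 3.89 ± 1.78, 1032 bp apart) had both marks (SD, 12 libraries).

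Within each list, the promoters with the most H3K27me3 were Nkx6-1 (19.0 ± 5.51), Smad6 (17.4 ± 7.97), Sox7, an endothelial factor (14.5 ± 7.15), Celsr1, an atypical cadherin of planar cell polarity (14.1 ± 8.95), Npas1 (13.1 ± 6.82), Notum (11.8 ± 4.85), Kcnj8 (11.1 ± 8.11), Ntn1 (10.4 ± 5.23), Adra1b, an adrenergic receptor (10.3 ± 6.04), Gad1 (7.81 ± 5.56) and Prox1 (5.76 ± 5.10; SD, 12 libraries). The order from Sox7 to Adra1b rests on differences smaller than these SDs. Gad1, expressed in inhibitory neurons, which are a minority of hippocampal neurons, had H3K4me3 of 9.35 ± 7.05, and Prox1 of 12.0 ± 6.32, both under the median of the other promoters.

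**Figure D3:**
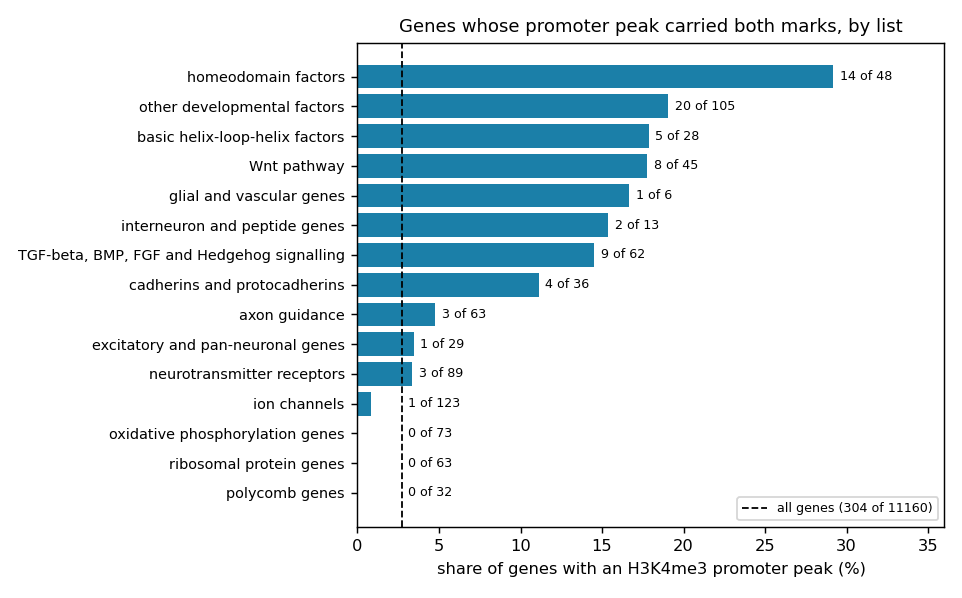
Share of the genes with an H3K4me3 promoter peak whose promoter had both marks, by gene list, in percent; labels give the numbers and the dashed line is the share over all genes (304 of 11160, 2.72%). Transcription factor and signalling lists lie between 14.5 and 29.2%, and the ribosomal, oxidative phosphorylation and polycomb lists lie at 0.

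The study asked whether loss of the glycosylases alters these marks at PRC2 target genes, and each knockout was therefore compared with WT. A peak was called a differentially enriched region (DER) when its log2 fold change exceeded 0.5 in size and its p, before adjustment, was under 0.05 by limma-trend on log2(value + 1), fitted over all peaks of a table with 3 libraries per genotype. Fold changes are on that scale and understate the change of low windows. The 3 comparisons share the WT libraries and are not independent of each other. After Benjamini-Hochberg adjustment by limma, 0 of the 308 promoters passed 0.05 in any mark or knockout, and by edgeR or DESeq2 the number was 0 too. Of all peaks, 0.121% passed for H3K27me3 in Mutyh-/-, 0.0484% for H3K27me3 in Ogg1-/- and 0.129% for Suz12 in Mutyh-/-, and 0% in the other comparisons. The DERs below are thus calls at an unadjusted p, whose number is to be read beside that of all peaks. Windows at or near 0 in 1 group may have become peaks through another group. Calls at such windows, as at Hmga2 and Speer4cos in H3K4me3 or Prox1 in H3K27me3, are not independent of that selection.

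For H3K4me3, few of the promoters with both marks were DERs. In Mutyh-/- there were 4 of 308 (1.30%, against 0.911% of all 12628 peaks), 3 higher (background 0.341%) and 1 lower (0.57%). In Ogg1-/- there were 6 (1.95%, against 0.966%), 5 higher (0.752%) and 1 lower (0.214%). In DKO there were 9 (2.92%, against 1.46%), 5 higher (0.483%) and 4 lower (0.982%). All of them were among the 247 promoters in the lowest quartile of H3K4me3 levels, where 1.52, 1.74 and 2.03% of all peaks were DERs in Mutyh-/-, Ogg1-/- and DKO, against 0.412, 0.602 and 0.538% in the top quartile. Set against that quartile, the 247 promoters gave 1.62, 2.43 and 3.64%. The 3 knockout libraries lay apart from the 3 WT libraries at 20, 14 and 22 of the 308 promoters (background 5.77, 3.68 and 5.02% of all peaks).

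The counts leaned on single libraries. In Mutyh-/- the count was 7 without WT replicate 1 and 7 without Mutyh-/- replicate 3, when 1.16 and 2.21% of all peaks were called. In Ogg1-/- it was 16 without WT replicate 1 (1.98% of all peaks), 18, all higher, without Ogg1-/- replicate 2 (3.25%) and 9, with 8 of them lower, without Ogg1-/- replicate 3 (2.65%). In DKO it was 23, with 22 of them lower, without DKO replicate 3 (3.75%) and 13, with 10 lower, without DKO replicate 2 (4.04%). It was 10, all higher, without WT replicate 1 (1.7%). Without DKO replicate 1 it was 7, with 6 higher and 1 lower (1.31%). DKO replicate 1 held the fewest H3K4me3 reads in peaks, 96023, and a median of 4 reads in these windows. The whole table moved with these promoters: 12 of 411 called peaks were lower without Ogg1-/- replicate 2, 317 of 335 without Ogg1-/- replicate 3 and 445 of 474 without DKO replicate 3. Scaling mattered too: with TMM factors the Ogg1-/- calls were 8 higher and 4 lower, and the share of all peaks called rose to 3.75, 3.81 and 5.54% in Mutyh-/-, Ogg1-/- and DKO, so that the 8, 12 and 20 promoters then called were near or under that background.

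Hmga2, a chromatin protein of fetal and stem cells, was the 1 promoter with an H3K4me3 call in all 3 knockouts. WT libraries had 0, 0 and 7.54, Mutyh-/- 16.3, 1.84 and 16.6, Ogg1-/- 13.1, 6.15 and 18.5, and DKO 15.8, 8.85 and 19.0. DKO lay wholly above WT, whereas 1 Mutyh-/- and 1 Ogg1-/- library fell below the highest WT library. The log2 fold change was 2.22 ± 0.90 in Mutyh-/- (SE, unadjusted p = 0.0184), 2.61 ± 0.90 in Ogg1-/- (unadjusted p = 0.00632) and 2.86 ± 0.90 in DKO (unadjusted p = 0.00307). By limma the adjusted p was 0.9998, 0.9998 and 0.9999. The Ogg1-/- and DKO calls held without any 1 library. The Mutyh-/- call was lost without WT replicate 1 or 2 (1.71 each) and without Mutyh-/- replicate 1 (1.79) or 3 (1.78).

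Id3, an inhibitor of helix-loop-helix factors, was the 1 promoter with a call in both histone marks in the same knockout. Its H3K4me3 value was 5.15, 0 and 0 in WT and 4.51, 8.85 and 12.1 in DKO (log2 fold change 2.29 ± 1.09, SE, unadjusted p = 0.0429). Its H3K27me3 value was 5.48, 0 and 8.62 in WT and 7.65, 21.3 and 8.82 in DKO (1.64 ± 0.78, unadjusted p = 0.0344). Both marks were thus higher in DKO, but in each the lowest DKO library was under the highest WT library. The H3K27me3 call was lost without WT replicate 2, where the log2 fold change was 0.65, or DKO replicate 2 (1.22). The H3K4me3 call was lost without WT replicate 2 or 3 (1.85 each) or DKO replicate 2 (2.22) or 3 (2.01). The adjusted p by limma was 0.9999 for H3K4me3 and 0.998 for H3K27me3.

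Further H3K4me3 calls with groups apart were made at Scube3, Gad1, Cavin1, Rbpms2, Fam110d, Speer4cos, Pitx3 and 3110082J24Rik. Scube3, a secreted protein, had 7.72, 4.88 and 10.8 in WT and 20.7, 21.1 and 20.1 in Mutyh-/-, with Mutyh-/- libraries close together and all above WT (1.36 ± 0.57, SE, unadjusted p = 0.0232). Gad1 had 24.4, 6.83 and 16.2 in WT and 5.45, 1.84 and 4.38 in Mutyh-/-, all below WT (-1.71 ± 0.82, unadjusted p = 0.0458). Cavin1, a coat protein of caveolae, had 7.72, 2.93 and 0 in WT and 11.9, 13.3 and 19.2 in Ogg1-/-, all above WT (2.26 ± 0.95, unadjusted p = 0.0232). Each call was lost without certain libraries, with the log2 fold change kept in direction: Scube3 without WT replicate 2 (1.10) or Mutyh-/- replicate 2 (1.34), Gad1 without WT replicate 1 (-1.33) or 3 (-1.61) or Mutyh-/- replicate 2 (-1.35) or 3 (-1.82), and Cavin1 without WT replicate 3 (1.41) or Ogg1-/- replicate 3 (2.07).

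Rbpms2, an RNA-binding protein of smooth muscle, had 15.4, 2.93 and 9.69 in WT and 19.0, 17.4 and 26.9 in Ogg1-/- (1.30 ± 0.60, SE, unadjusted p = 0.0372). Its call was lost without WT replicate 2, the lowest (0.72), and without Ogg1-/- replicate 1 (1.36) or 3 (1.12). Fam110d had 10.3, 6.83 and 5.38 in WT and 18.0, 20.1 and 21.2 in DKO (1.33 ± 0.57, unadjusted p = 0.0268), with every DKO library above WT. Its call was lost without WT replicate 2 (1.29) or 3 (1.14) or DKO replicate 2 (1.32) or 3 (1.28). Speer4cos had no read in WT and values of 18.0, 1.61 and 9.10 in DKO, at least 8.72-fold higher, where the bound sets 3 reads over the 3 WT libraries. It belongs to a multigene family whose reads may have been split among copies, so this value is uncertain, and its call was lost without DKO replicate 1 or 3.

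The DKO calls with groups apart also included a higher one at Rbpms2 and lower ones at Pitx3 and 3110082J24Rik. Rbpms2 had 20.3, 16.1 and 24.3 in DKO, above the same WT values (1.25 ± 0.60, SE, unadjusted p = 0.0455), and the call was lost without WT replicate 2 (0.66) or DKO replicate 1 (1.23) or 3 (1.11). Pitx3, a homeodomain factor of midbrain dopamine neurons and the lens, had 24.4, 14.6 and 15.1 in WT and 0, 10.5 and 13.6 in DKO (-1.75 ± 0.76, unadjusted p = 0.0271), and the call was lost without WT replicate 1 (-1.52) or DKO replicate 1 (-0.52). 3110082J24Rik, a transcript without an assigned function, had 15.4, 9.76 and 11.8 in WT and 0, 4.83 and 3.79 in DKO (-2.12 ± 0.95, unadjusted p = 0.0332), and the call was lost without WT replicate 1 (-1.95) or 3 (-2.13) or DKO replicate 1 (-1.32).

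For H3K27me3, the calls went mostly down. In Mutyh-/- 15 of 308 were DERs (4.87%, against 3.78% of all 4132 peaks), 1 higher (background 0.992%) and 14 lower (2.78%). In Ogg1-/- there were 13 (4.22%, against 3.82%), 1 higher (1.48%) and 12 lower (2.35%). In DKO there were 10 (3.25%, against 3.36%), 1 higher (1.69%) and 9 lower (1.67%). Lower calls alone were 4.55, 3.90 and 2.92% of the promoters. These promoters have high H3K27me3 levels, and 186 of them (60.4%) were in the highest quartile of H3K27me3 peaks: among those, 5.91, 3.76 and 2.69% were called lower in Mutyh-/-, Ogg1-/- and DKO, against 3.87, 3.10 and 2.32% of all 1033 peaks of the quartile. The groups lay apart at 35, 22 and 23 of the 308 promoters (background 9.15, 9.17 and 9.08%).

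The balance of higher and lower calls depended on single libraries in Ogg1-/- and DKO, and in DKO also on the test. The lowest medians of these windows, 3 and 4 reads, were those of Mutyh-/- replicate 1 and Ogg1-/- replicate 1. Without Ogg1-/- replicate 1 the Ogg1-/- calls were 6 higher and 5 lower. In Mutyh-/- they stayed mostly lower, with 3 higher and 10 lower without Mutyh-/- replicate 1, 1 and 8 by edgeR, and 2 and 9 by DESeq2. In Ogg1-/- edgeR gave 3 and 9 and DESeq2 3 and 13. In DKO, 3 calls were left without DKO replicate 1 and 6 without DKO replicate 2, when 3.29 and 2.44% of all peaks were called. Without WT replicate 2 the DKO calls were 4 higher and 4 lower, and without WT replicate 3 they were 3 and 4. By edgeR they were 2 and 2, and by DESeq2 2 and 3, in place of 1 and 9. Without the third knockout replicate, the counts were 28 in Mutyh-/-, 31 in Ogg1-/- and 24 in DKO, nearly all lower, when 6.46, 5.64 and 4.67% of all peaks were called, also mostly lower. Without WT replicate 2 the Ogg1-/- count was 8 (3.1% of all peaks).

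The lower H3K27me3 calls fell on genes of several kinds. From the transcription factor lists came En2, Pou4f1, Prox1, Foxd2, Irf5 and Prdm1, the last in both Mutyh-/- and Ogg1-/-. In the signalling lists, Fgf3 was lower in Mutyh-/- and Smad6 in Ogg1-/-, and 0 of the 8 Wnt pathway promoters had a call. 4931408C20Rik and Slc35d3 were called lower in Mutyh-/- and in DKO. The 3 higher calls were Id3 in Mutyh-/- and DKO and Calca, the calcitonin gene-related peptide gene, in Ogg1-/- (2.69 on the log2 scale), where WT had 5.48, 0 and 0 and Ogg1-/- 4.95, 15.7 and 16.4. No promoter was called in all 3 knockouts.

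The lowest unadjusted p belonged to Prox1. Its H3K27me3 value was 5.48, 14.4 and 11.2 in WT (5, 13 and 13 reads) and 0 in all 3 Ogg1-/- libraries, at least 10.1-fold lower where the bound sets 3 reads over the 3 Ogg1-/- libraries (unadjusted p = 0.000869, adjusted p = 0.718 by limma). The other knockouts were not alike: Mutyh-/- had 0, 6.64 and 7.99 and DKO 3.28, 9.69 and 10.4. H3K4me3 at Prox1 was 7.72, 8.78 and 8.62 in WT and 13.1, 6.15 and 19.2 in Ogg1-/-, with overlapping groups and no call. The H3K27me3 call held without any 1 library.

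In Mutyh-/-, Hs3st2, a heparan sulfate sulfotransferase, had H3K27me3 of 13.1, 6.64 and 5.17 in WT and 0, 1.11 and 0 in the knockout (-2.77 ± 0.98, SE, unadjusted p = 0.00484). Rab11fip1, an effector of recycling endosomes, had 9.86, 16.6 and 19.0 in WT and 1.01, 2.21 and 5.99 in Mutyh-/- (-2.13 ± 0.79, unadjusted p = 0.00671). Both lay wholly below WT and kept their call without any 1 library. En2, the engrailed homeodomain factor, had 14.2, 14.4 and 14.6 in WT and 0, 6.64 and 5.99 in Mutyh-/- (-2.03 ± 0.76, unadjusted p = 0.00712), but without Mutyh-/- replicate 1 the log2 fold change was -1.08 and the call was lost. The adjusted p by limma was 0.998 for each of these.

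In Ogg1-/-, Tubb6, a beta-tubulin, had 21.9, 17.7 and 19.8 in WT and 0, 6.27 and 14.4 in the knockout (-2.11 ± 0.77, SE, unadjusted p = 0.00601), and without Ogg1-/- replicate 1 the call was lost at -0.97. Mybl2, a cell-cycle transcription factor, had 7.67, 11.1 and 6.03 in WT and 0, 0 and 4.11 in Ogg1-/- (-2.39 ± 0.98, unadjusted p = 0.0148). In DKO, Nkd1, an inhibitor of Wnt signalling that was not in the Wnt list, had 6.57, 9.96 and 12.9 in WT and 2.19, 0 and 1.60 in the knockout (-2.37 ± 1.01, unadjusted p = 0.0191). All 3 had knockout libraries wholly below WT. The call of Mybl2 was lost without WT replicate 2 (-2.18) or Ogg1-/- replicate 1 or 2 (-1.997 each), and that of Nkd1 without WT replicate 3 (-2.17) or DKO replicate 2 (-1.87).

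Slc35d3 had 16.4, 17.7 and 22.4 in WT and 0, 15.5 and 11.2 in DKO (-1.75 ± 0.77, SE, unadjusted p = 0.0229), and the call was lost without DKO replicate 1 (-0.47) or WT replicate 3 (-1.62). Myo5b, an unconventional myosin, had 7.67, 8.86 and 5.17 in WT and 1.09, 0 and 4.01 in DKO (-1.88 ± 0.93, unadjusted p = 0.0431). Both were below WT in every DKO library. The call of Myo5b was lost without WT replicate 1 (-1.83) or 2 (-1.74) or DKO replicate 1 (-1.85) or 2 (-1.32). Prdm1, the repressor also known as Blimp1, had 15.3, 16.6 and 9.48 in WT, 3.04, 0 and 5.00 in Mutyh-/-, 0, 7.32 and 8.22 in Ogg1-/- and 5.46, 5.82 and 15.2 in DKO, so that the single knockouts lay below WT and DKO overlapped it. Of the 26 calls in the 3 marks that the naming rule gave, 5 held without any 1 library, and 21 were lost without at least 1.

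**Figure D4:**
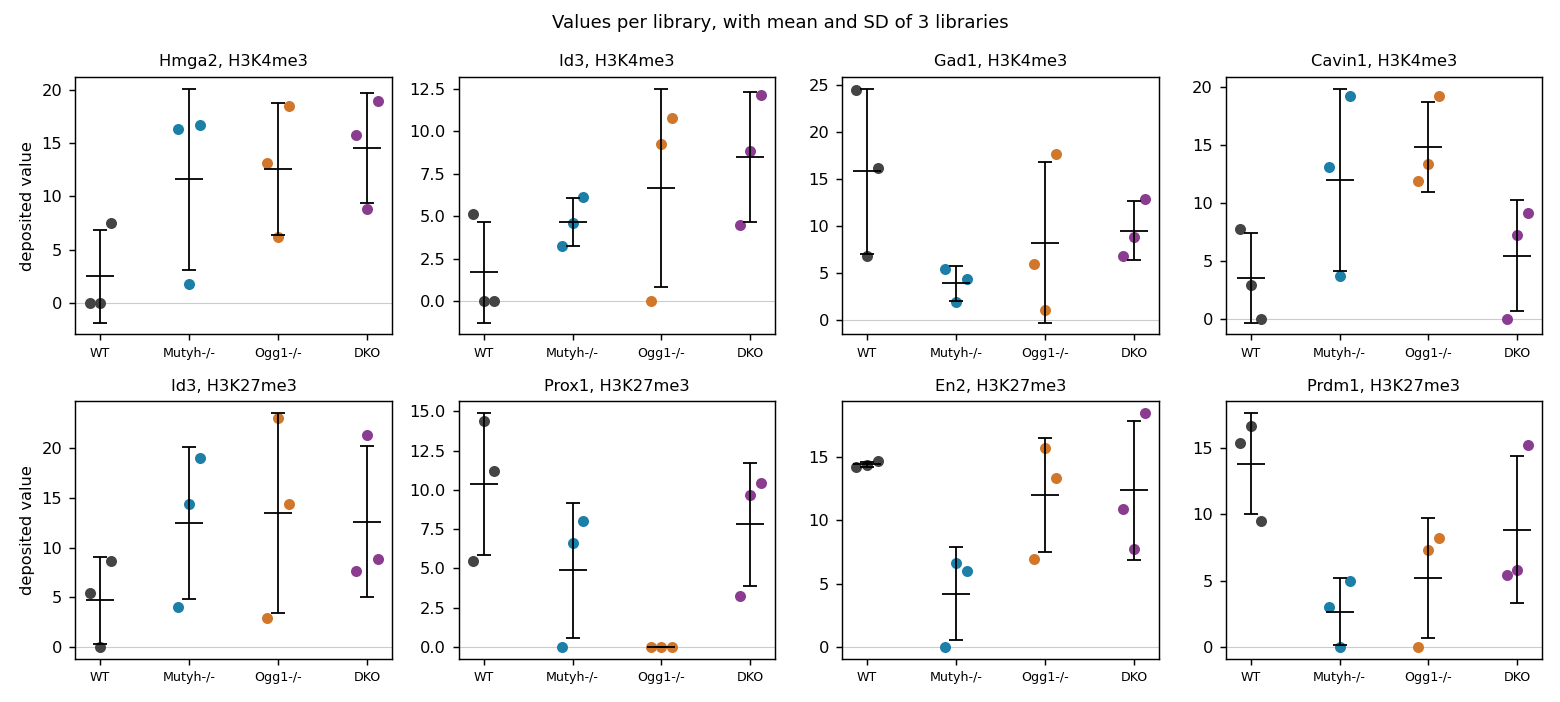
Deposited values per library (points) with the mean and SD of 3 libraries (lines) by genotype, for H3K4me3 at Hmga2, Id3, Gad1 and Cavin1 (top) and H3K27me3 at Id3, Prox1, En2 and Prdm1 (bottom). Prox1 is at 0 in the 3 Ogg1-/- libraries against 5.48 to 14.4 in WT, and Hmga2 is at 0 in 2 of 3 WT libraries.

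As a group, the promoters with both marks were described by their median change. For H3K4me3 the median log2 fold change was 0.13, 0.16 and 0.09 in Mutyh-/-, Ogg1-/- and DKO, against -0.068, 0.079 and -0.020 over all peaks. In the lowest quartile of H3K4me3 levels the 247 promoters had medians of 0.11, 0.15 and 0.077 and all its 3157 peaks -0.035, 0.066 and -0.040. For H3K27me3 the medians were -0.34, -0.31 and -0.14, against -0.21, -0.11 and -0.011 over all peaks. The signs rested on single libraries. Without replicate 1 of the knockout the H3K27me3 medians were 0.063, 0.023 and 0.18, against 0.051, 0.12 and 0.24 over all peaks. Without WT replicate 2 the H3K4me3 medians were -0.093, -0.0057 and -0.064, against -0.27, -0.12 and -0.22. Single promoters were spread widely, with an interquartile range of -0.83 to 0.18 for H3K27me3 in Mutyh-/-.

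Scaling moved some of the medians of all peaks. In Suz12, TMM factors changed the median of all peaks from -0.63 to -0.083 in Mutyh-/- and from -0.57 to -0.092 in Ogg1-/-, and in H3K27me3 from -0.21 to -0.11 in Mutyh-/-. Relative to the median of all peaks, the H3K27me3 median of the promoters with both marks was -0.12, -0.20 and -0.12 in Mutyh-/-, Ogg1-/- and DKO with the deposited factors and -0.11, -0.18 and -0.11 with TMM factors. Across 11 settings, including those that leave out a library, it ran from -0.22 to 0.012 in Mutyh-/-, where it was 0.012 without Mutyh-/- replicate 1, from -0.36 to -0.096 in Ogg1-/- and from -0.19 to -0.056 in DKO. The H3K4me3 difference ran from 0.14 to 0.21, from 0.050 to 0.17 and from 0.00051 to 0.24.

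Fold changes of the marks, each taken relative to the median of all peaks, had opposite signs at 146 of 308 promoters in Mutyh-/-, 149 in Ogg1-/- and 151 in DKO, and the same sign at 162, 159 and 157. H3K4me3 was above and H3K27me3 below the median at 104, 101 and 97, and the reverse held at 42, 48 and 54. Both marks were above it at 94, 76 and 81 and below it at 68, 83 and 76. Each mark leaned this way by itself, with H3K4me3 above its median at 198, 177 and 178 promoters. H3K27me3 was below its median at 172, 184 and 173. The Spearman correlation between the fold changes of the marks was 0.16, 0.074 and 0.043. The counts thus do not show opposite changes at the same promoters, and a link between the marks was not tested. Calls in H3K4me3 in at least 1 knockout were made at 15 promoters and in H3K27me3 at 34. These counts do not compare the marks, since 0.911 to 1.46% of all H3K4me3 peaks were called per knockout and 3.36 to 3.82% of all H3K27me3 peaks. The share of all peaks called in at least 1 knockout was not determined. Of the promoters called in a given knockout, 0 were shared between the marks in Mutyh-/- and in Ogg1-/-, and Id3 in DKO.

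**Figure D5:**
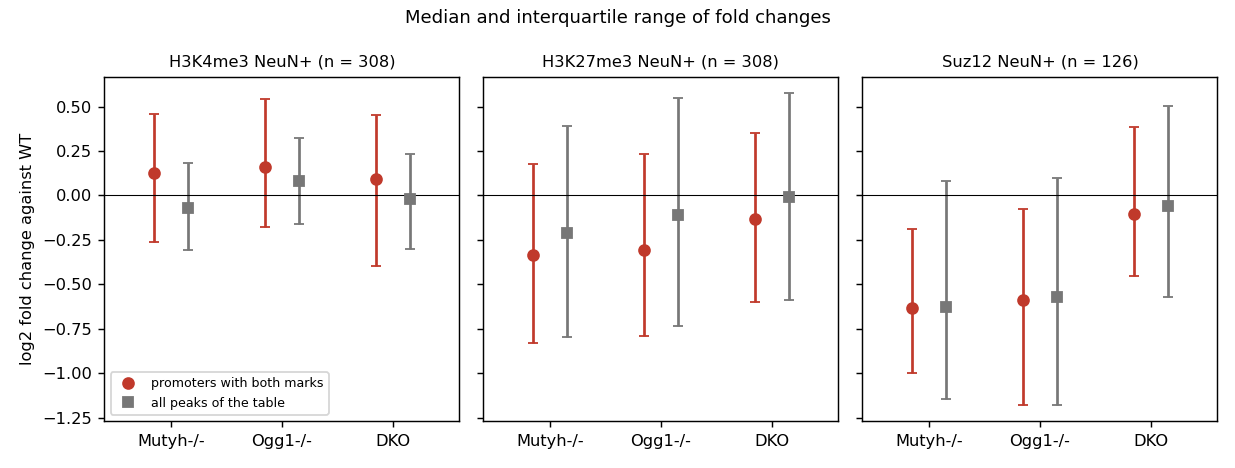
Median (symbol) and interquartile range (bar) of the log2 fold change against WT, on the log2(value + 1) scale, of the promoters with both marks (circles) and of all peaks of the table (squares), in the NeuN+ tables of H3K4me3, H3K27me3 and Suz12 (left to right). The H3K27me3 medians of the promoters with both marks are -0.34, -0.31 and -0.14 and lie below those of all peaks, and the Suz12 medians of both sets lie close together. Without replicate 1 of the knockout (not shown) these H3K27me3 medians are 0.063, 0.023 and 0.18.

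In Suz12, 3 of the 126 promoters with a Suz12 peak were DERs in Mutyh-/- (2.38%, against 5.16% of all 775 peaks), 1 in Ogg1-/- (0.794%, against 3.74%) and 3 in DKO (2.38%, against 2.58%). In Mutyh-/- 1 was higher (1.94%) and 2 lower (3.23%), in Ogg1-/- 1 higher (1.42%) and 0 lower (2.32%) and in DKO 3 higher (1.68%) and 0 lower (0.903%). Without the 4 promoters that stood apart by H3K27me3, the counts were 2, 0 and 2 of 122. With the replicate number as a block, which pairs same-numbered Suz12 libraries, the Mutyh-/- count was 12, with 10 lower, when 13.3% of all peaks were called. The Ogg1-/- count was then 18, with 17 lower (12.6% of all peaks), and the DKO count 2, with 0 lower (4.9%). The median log2 fold change was -0.63, -0.59 and -0.10, beside -0.63, -0.57 and -0.061 over all peaks, so that the promoters with both marks followed the table. The groups lay apart at 4, 10 and 3 of the 126 (background 7.61, 8.26 and 5.68%). Mutyh-/- replicate 1 and Ogg1-/- replicate 1 had a median of 3 reads in these windows. The Mutyh-/- count was 0 without Mutyh-/- replicate 1 (2.71% of all peaks called) and 5 without Mutyh-/- replicate 2 (8.77%). It was 1 without Mutyh-/- replicate 3 (4.13%), WT replicate 2 (2.97%) or WT replicate 3 (2.19%). The Ogg1-/- count was 10 without Ogg1-/- replicate 2 (8.13%) and 3 without Ogg1-/- replicate 3 (5.55%). It was 2 without WT replicate 2 (3.23%) and 0 without WT replicate 3 (2.32%). The DKO count was 1 without WT replicate 3 (1.16%) and 0 without DKO replicate 3 (0.774%).

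Aida was the promoter called in all 3 knockouts, and it rested on 1 library. Its Suz12 value was 88.5, 77.2 and 0 in WT, 175, 112 and 39.5 in Mutyh-/-, 105, 132 and 123 in Ogg1-/- and 32.3, 103 and 121 in DKO. Without WT replicate 3, the library at 0, the log2 fold change was 0.15, 0.53 and -0.16 in place of 2.28, 2.65 and 1.97, with no call. The Mutyh-/- call was also lost without Mutyh-/- replicate 1 (1.82) and the DKO call without DKO replicate 2 (1.73) or 3 (1.62). Cyp1b1, a cytochrome P450, had 0, 2.97 and 0 in WT and 7.65, 11.5 and 18.1 in DKO (3.01 ± 1.25, SE, unadjusted p = 0.0160). Coil, the Cajal body protein coilin, had 4.02, 0 and 0 in WT and 5.95, 4.17 and 21.3 in DKO (2.44 ± 1.20, unadjusted p = 0.0425). Syt6, a synaptotagmin, had 10.7, 17.8 and 18.8 in WT and 1.64, 9.32 and 0 in Mutyh-/- (-2.44 ± 1.21, unadjusted p = 0.0444). Each of these groups lay apart. The call of Cyp1b1 was lost without WT replicate 1 or 3 (2.68 each) or DKO replicate 3 (2.71), that of Coil without WT replicate 2 or 3 (2.05 each) or DKO replicate 3 (1.81), and that of Syt6 without WT replicate 2 (-2.34) or 3 (-2.30) or Mutyh-/- replicate 1 (-2.35) or 3 (-1.65). The smallest adjusted p by limma was 0.328, at Aida in Ogg1-/-.

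Whether the loss of 1 glycosylase acted differently when the other was also lost was asked with a non-additive contrast, the log2 change in DKO less those in Ogg1-/- and in Mutyh-/-. By limma 0 of the promoters passed an adjusted p of 0.05, and 6 (1.95%, background 0.839%), 12 (3.90%, background 3.92%) and 3 (2.38%, background 5.16%) had an unadjusted p under 0.05 in H3K4me3, H3K27me3 and Suz12. By edgeR these were 8, 8 and 0 and by DESeq2 8, 11 and 3, with 0 after adjustment in both. The size of a non-additive effect that these libraries could show was not tested.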

How the data were processed

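ChIP-seq of NeuN+ and NeuN- hippocampal nuclei gave single-end reads that the authors aligned with Bowtie2 (2.3.5.1), per the submitters' processing notes, to GRCm38 (mm10); of the transcripts annotated to promoter peaks, 11697 of 11729 have the same coordinates in GENCODE M21. The authors called peaks per library with epic2 at an FDR of 0.05, kept those found in at least 2 of 3 replicates, counted reads with DiffBind (3.10.1) in 401-bp windows and annotated them with ChIPseeker (1.36). How duplicates and blacklisted regions were handled is not given in the sources used here, and input libraries were not analysed here. The deposited values are a signal, reads divided by 1 factor per library. Whole reads could be recovered from 100% of them within 0.01 of a read. Tables hold 96023 to 548706 reads per library in H3K4me3, 23794 to 52344 in H3K27me3 and 6652 to 33035 in Suz12 of NeuN+ nuclei, and tables were normalised separately, so no level was tested between them.

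Promoters were grouped by peak centres, and each took its nearest H3K27me3 and Suz12 peak. The members and gene lists were chosen with earlier results of these data known. limma-trend (3.58.1, R 4.3.3) was fitted to log2(value + 1) of the 12 libraries of a table with genotype as the only term and no filter, and p-values were adjusted over all peaks of the table. The prior degrees of freedom were 24.9 for H3K4me3 and infinite for H3K27me3 and Suz12, which treats all windows of one level as equally variable. The script was tested on simulated data. Named promoters were, for each mark and knockout, up to 3 called ones with the smallest p and groups apart; those called in both marks or in all 3 knockouts; the 10, 5 and 5 highest in H3K27me3, H3K4me3 and Suz12; the highest in H3K27me3 of each list; those next to the distance limit; and genes named by the study. Calca and Prdm1, and the DKO H3K4me3 calls of Rbpms2, Pitx3 and 3110082J24Rik, were also shown with values, chosen after these were seen. Alternatives were another pseudocount, a read filter, TMM factors, edgeR (4.0.16) and DESeq2 (1.42.0) on recovered reads, robust moderation, a replicate block, each library left out, and other distances. Same-numbered libraries deviated from their genotype means with correlations of -0.10 to 0.093 in the histone marks, which are thus not paired. In Suz12 the correlations were all positive, at 0.39, 0.19 and 0.12 for Mutyh-/- and WT. They were 0.29, 0.23 and 0.071 for Ogg1-/- and WT in Suz12, and 0.21, 0.18 and 0.040 for DKO and WT. Whether Suz12 libraries were paired was not settled by such uneven values. The main Suz12 fit left them unpaired, and the replicate block is given as an alternative. An exact test of 3 against 3 libraries cannot go below p = 0.1 and was not used. Sequences were read with pysam (0.24.0) from GRCm38.p6.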

Additional observations from a re-analysis of the deposited data

How the results depend on the processing

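Counts of called promoters moved by over 1.5 times under these alternatives. For H3K4me3 in Mutyh-/- (4 calls), Ogg1-/- (6) and DKO (9), TMM factors gave 8, 12 and 20 (3.75, 3.81 and 5.54% of all peaks). edgeR gave 9 in Mutyh-/- and 11 in Ogg1-/- (4.01 and 3.97%), and DESeq2 10 and 12 (2.99 and 2.99%). Centres within 1 kb gave 1 and 3, and overlapping windows 0, 2 and 4. For H3K27me3 (15, 13 and 10), edgeR gave 9 in Mutyh-/- (3.61% of all peaks) and 4 in DKO (2.52%). In DKO, DESeq2 gave 5 (3.65%) and the filter of 5 reads 5 (2.64% of the 2158 peaks kept). Centres within 1 kb gave 8 in Ogg1-/-, and overlapping windows 6 in Ogg1-/- and 6 in DKO. The replicate block gave 23 in Mutyh-/- and 20 in Ogg1-/- (5.86 and 5.28% of all peaks), although the numbers do not pair these libraries. For Suz12 (3, 1 and 3), edgeR gave 0, 2 and 1 (3.48, 3.23 and 1.81% of all peaks) and DESeq2 1, 4 and 1 (5.81, 6.45 and 3.61%). TMM factors gave 3 in Ogg1-/- (4.26%) and 1 in DKO (2.58%), and overlapping windows 1 in Mutyh-/-. The filter and robust moderation each gave 2 in Ogg1-/- (3.29 and 3.61%). In Ogg1-/-, 0 were left without the 4 promoters of highest H3K27me3, an alternative chosen after seeing the data. The replicate block gave 12 in Mutyh-/- and 18 in Ogg1-/-, when 13.3 and 12.6% of all 775 peaks were called. Except where fewer promoters or reads entered by construction, the cause was not tested. Over the whole H3K4me3 table, limma called 115, 122 and 185 peaks, edgeR 506, 501 and 490, and DESeq2 378, 377 and 355.

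Leaving out 1 library gave 4 to 7, 4 to 18 and 7 to 23 calls in H3K4me3, 11 to 28, 8 to 31 and 3 to 24 in H3K27me3, and 0 to 5, 0 to 10 and 0 to 3 in Suz12. Of all H3K4me3 peaks, 0.736 to 2.21, 0.768 to 3.25 and 1.31 to 4.04% were called in these fits. The shares were 3.17 to 6.46, 3.1 to 5.64 and 2.44 to 4.67% in H3K27me3. In Suz12 they were 2.19 to 8.77, 2.32 to 8.13 and 0.774 to 3.48%. The H3K4me3 difference from the other promoters ran from -0.89 to -0.85. The non-additive contrast gave 0 adjusted calls in every alternative run. The Suz12 log2 fold change of Aida in DKO, 1.97, ran from -0.16 (without WT replicate 3) to 3.08. The share with a Suz12 peak was 33.8% by overlapping windows, and that with an H3K27me3 peak in NeuN- nuclei 27.6% within 1 kb and 14.9% by overlap. Of 26 named calls, edgeR kept 18 and DESeq2 19. A median of 3 to 14 reads per H3K27me3 window limits what can be seen at single promoters.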
